A study of Mus musculus with 9 samples.

Results

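Oxidative phosphorylation is carried out by 5 protein complexes of the inner mitochondrial membrane, and the nuclear genes for their subunits were described here in Hepa1-6 cells, a mouse hepatoma line. Protein-coding genes were chosen by name alone (the Nduf subunit, Sdh, Uqcr, Cyc1, Cox4 to Cox8 and Atp5 symbols, without the assembly factors whose names begin with Ndufaf), so no expression value entered the choice. The rule gave 90 of the 56748 listed genes, with 40 in complex I, 4 in complex II, 9 in complex III, 19 in complex IV and 18 in complex V. Messenger RNA was read by RNA sequencing in 9 libraries, 3 from untreated cells, 3 after lefamulin and 3 after tiamulin. Both drugs were given in culture medium at 37 μg/mL for 2 days, and all cells grew in DMEM with fetal bovine serum and penicillin-streptomycin. Nothing in the sample descriptions says that the 3 libraries of a group came from separate cultures, so the p-values measure the spread between these libraries, which may be technical.

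Complexes I and II pass electrons from NADH and succinate to ubiquinone, complex III passes them on to cytochrome c, complex IV hands them to oxygen, and complex V, the ATP synthase, uses the resulting proton gradient to make ATP. Most subunits are encoded in the nucleus and imported, while a few of complexes I, III, IV and V are made inside the organelle by mitochondrial ribosomes. Complex II is the exception, being built of nuclear products alone. Lefamulin and tiamulin are pleuromutilin antibiotics, which bind the large subunit of bacterial ribosomes. They share the pleuromutilin core and differ in the side chain that it carries.

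Of the 90 genes, 80 had enough reads to be tested among 14510 genes in all. The library totals ran from 15568887 to 18008105 counts, the lowest count of a tested subunit gene in any library was 39, and 78 of the 80 had at least 100 counts in every library. The tiamulin 2 library stood apart from its group. Counts of libraries of the same group differed by a chi-square of 18.1 and 20.6 per degree of freedom in the pairs with tiamulin 2, and of 2.88 to 7.57 in the other pairs. Over 10054 well-covered genes, the deviation of tiamulin 2 from its group mean had a rank correlation of 0.70 with GC content. Values of 0.51 in control 1 and -0.50 in control 2 show that such a tilt was not limited to the tiamulin group, and the -0.54 and -0.59 of tiamulin 1 and 3 are tied to tiamulin 2, since deviations within a group sum to 0. For genes named below as passing the test under tiamulin in the fit of all libraries on group alone, values are therefore given both with all libraries and without tiamulin 2.

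Among the markers of the labelled cell type, albumin (Alb) stood at 487 CPM (counts scaled to library size) and alpha-fetoprotein (Afp) at 962 CPM in controls, while transthyretin (Ttr) had at most 2 counts in any library. The summed level of 12 hepatocyte markers was 1756 to 1895 FPKM (fragments per kilobase of gene length, scaled to library size) in controls, 1686 to 1772 with lefamulin and 1812 to 2187 with tiamulin. The 2187 was tiamulin 2, while tiamulin 1 and 3 stood at 1812 and 1824, inside the control range. The sum joins members that moved in opposite directions. Of the 9 hepatocyte markers tested, tiamulin lowered Alb and Afp (log2(fold change) -0.50 and -0.81, edgeR adjusted p = 7.6e-05 and 5.4e-07) and raised Krt18, a keratin of epithelial cells (0.37, edgeR adjusted p = 0.0039). Leaving out tiamulin 2 gave -0.51, -0.83 and 0.26 for these 3 and left 5 markers lowered and 2 raised. Lefamulin lowered 2 of the 9, Alb among them (-0.24, edgeR adjusted p = 0.017), and raised 1. Of 5 fibroblast or stellate markers, 4 were tested, and their sum fell from a range of 255 to 270 FPKM in controls to 194 to 203 with lefamulin and 180 to 195 with tiamulin, nearly all of it from decorin (Dcn, 1534 CPM in controls), since Col1a1 had 3 to 12 counts. The 7 immune markers summed to 6.48 to 7.29 FPKM in controls, 8.46 to 13.5 with lefamulin and 11.7 to 16.4 with tiamulin, with 3 of them at 0 in every library. Of the 3 immune markers tested, each drug raised 2. Under tiamulin these were Ptprc and Cd68 (log2(fold change) 2.12 and 1.02, edgeR adjusted p = 0.034 and 0.00059). Without tiamulin 2 they stood at 2.24 and 0.90 and still passed (edgeR adjusted p = 0.021 and 6.1e-05). The 4 endothelial markers stayed at or below 0.309 FPKM in sum and the 3 erythroid ones at or below 1.16. Lefamulin raised the 1 endothelial marker tested. Whether these shifts had a part in the results below was not tested, and in bulk RNA fewer cells of a type and less RNA per cell cannot be told apart.

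In untreated cells, the subunit genes spanned a wide range of levels within each complex except complex II, as the plot of control FPKM by complex shows. FPKM divides by gene length and so allows levels to be compared between genes, although the length used here is that of all exons of a gene. Complex V held the highest levels, with Atp5b (the catalytic beta subunit of the ATP synthase) at 351 ± 7.0 FPKM (SD, n = 3) and Atp5a1 (the alpha subunit beside it) at 297 ± 7.7. At the other end of complex V lay Atp5g1 (one of 3 genes for subunit c) at 10.9 ± 0.93 and Atp5l (subunit g) at 10.1 ± 0.96, which did not differ beyond their spread.

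**Figure D1:**
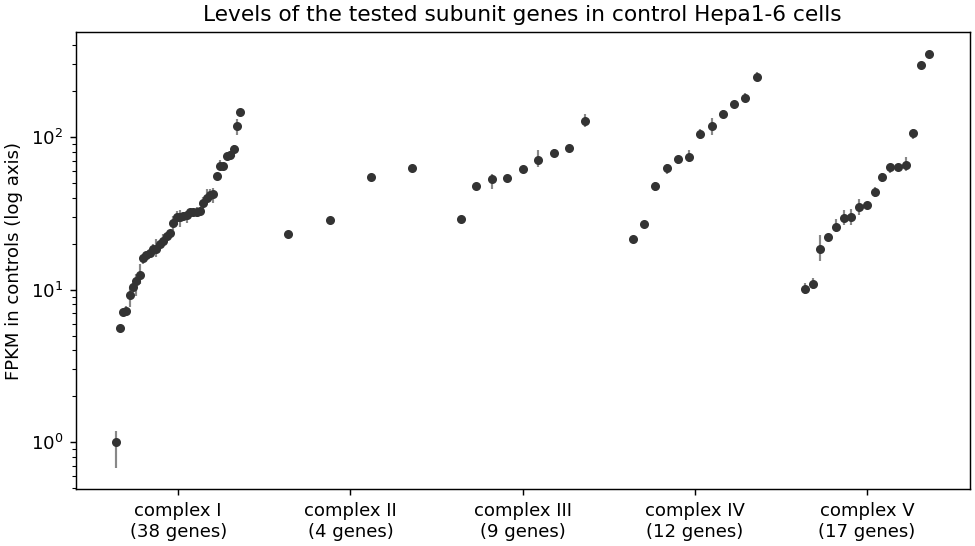
Control level of each tested subunit gene in FPKM on a log axis, arranged by complex and ordered within it. Each point is the mean of 3 control libraries and each vertical line spans their lowest and highest value. Points run from 1.01 FPKM (Ndufb2, complex I) to 351 FPKM (Atp5b, complex V).

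Complex IV had the highest median level, 89.3 FPKM over 12 tested genes, against 61.6 in complex III, 41.8 in complex II, 36.1 in complex V and 30.1 in complex I. Its leading genes were Cox6a1 at 249 ± 14 FPKM and Cox8a at 181 ± 12, both for small subunits around the catalytic core. The lowest of its tested genes were Cox5a at 26.8 ± 0.99 and Cox5b-ps at 21.6 ± 0.61. Cox5b-ps is annotated as protein-coding in the deposited table yet carries a pseudogene name, so its reads may be shared with its parent gene Cox5b (62.8 ± 4.7 FPKM), and its values are uncertain.

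Several complex IV subunits have a second gene used mainly in muscle, lung, testis or another tissue, and these alternative forms were close to absent from Hepa1-6 cells. Cox4i1 stood at 166 ± 7.3 FPKM, whereas its partner Cox4i2 had 2 to 9 counts in any library. Cox6a2 had 0, 1 and 0 counts in controls, 0, 0 and 1 with lefamulin and 4, 5 and 6 with tiamulin, so the tiamulin libraries lay above the rest but too low to be tested. Cox7a1 had 3 to 11 counts per library, Cox8b 0 to 8, and Cox6b2 and Cox7b2 at most 2. Cox8c had none, which in a single library allows up to 3 counts (counting error only). Their counterparts Cox6b1 (142 ± 7.4 FPKM), Cox7a2 (71.5 ± 4.1), Cox7b (104 ± 7.9) and Cox8a carried the expression, and Cox6c, which has no such second gene among those listed, stood at 74.3 ± 7.1.

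In complex I, Ndufa4 at 118 ± 15 FPKM and Ndufb3 (an accessory subunit of the membrane arm) at 83.4 ± 8.3 were among the highest levels. Ndufa4 was grouped here by its name, although its product is now placed in complex IV. The lowest tested were Ndufb7 at 5.60 ± 0.30 and Ndufb2 at 1.01 ± 0.29, both for accessory subunits of the membrane arm. Ndufa4l2, a relative of Ndufa4, had 0 to 12 counts per library and Ndufb11b had none.

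All 4 complex II genes fell within a narrow band. Sdhd and Sdhc, the membrane anchors, stood at 63.0 ± 1.1 and 28.5 ± 0.74 FPKM, Sdha (the flavoprotein that oxidizes succinate) at 55.2 ± 0.77 and Sdhb (the iron-sulfur subunit) at 23.0 ± 1.1. In complex III the order began with Uqcr10 at 127 ± 13 and Uqcrfs1 (the Rieske iron-sulfur protein) at 85.5 ± 0.77 and ended with the core proteins Uqcrc2 at 47.6 ± 2.5 and Uqcrc1 at 29.0 ± 1.3. A second gene listed under the name Atp5o had no count in any library, while Atp5o itself stood at 22.1 ± 0.44 FPKM.

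Transcription of these genes is driven in part by NRF1, by ETS-family factors such as GABP, and by YY1. Promoter windows from RefSeq (GRCm38.p6, 250 bases before to 50 after the start of transcription) were found for 70 of the 90 genes and searched on both strands for GCGCATGC (the NRF1 core), CCGGAAG (ETS/GABP) and AAGATGG (YY1). The NRF1 core was present in 10 of the 70 genes (14.3%), against 5.86% of tested genes with a window and 3.05% of all genes with a window. ETS/GABP letters were present in 17 (24.3%), against 20.5% and 9.93%, and YY1 letters in 11 (15.7%), against 8.70% and 7.28%. None of the 3 was found in 38 genes, 1 kind in 26, and 2 kinds in 6. A match describes letters only.

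The upstream parts of 4 windows are shown as examples with and without these letters. Cox6a1, with the highest control level in complex IV, and Atp5j, for a subunit of the peripheral stalk of the ATP synthase, hold 2 kinds of motif each, and neither passed the test under either drug (edgeR adjusted p from 0.23 to 0.97). Cox7a2l and Atp5g1, 2 genes with a significant difference between groups, hold none. Capitals mark the motif letters, and each run reads 5′ to 3′ on the strand of its gene, all 4 of them the minus strand of GRCm38.p6.
Cox6a1: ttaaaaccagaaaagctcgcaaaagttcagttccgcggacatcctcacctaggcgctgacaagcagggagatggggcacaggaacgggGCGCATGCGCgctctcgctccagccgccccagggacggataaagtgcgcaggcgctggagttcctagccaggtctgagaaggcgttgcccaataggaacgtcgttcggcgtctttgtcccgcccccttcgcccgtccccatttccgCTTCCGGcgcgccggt
Atp5j: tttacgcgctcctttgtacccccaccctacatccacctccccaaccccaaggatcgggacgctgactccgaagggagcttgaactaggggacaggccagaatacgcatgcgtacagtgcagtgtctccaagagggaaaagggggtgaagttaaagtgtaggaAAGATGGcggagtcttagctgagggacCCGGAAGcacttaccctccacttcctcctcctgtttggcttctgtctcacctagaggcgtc
Cox7a2l: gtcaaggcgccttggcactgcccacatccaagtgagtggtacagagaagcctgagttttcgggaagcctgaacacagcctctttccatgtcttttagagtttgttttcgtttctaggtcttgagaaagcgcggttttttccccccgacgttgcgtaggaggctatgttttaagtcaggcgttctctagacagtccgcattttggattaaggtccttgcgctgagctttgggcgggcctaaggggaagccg
Atp5g1: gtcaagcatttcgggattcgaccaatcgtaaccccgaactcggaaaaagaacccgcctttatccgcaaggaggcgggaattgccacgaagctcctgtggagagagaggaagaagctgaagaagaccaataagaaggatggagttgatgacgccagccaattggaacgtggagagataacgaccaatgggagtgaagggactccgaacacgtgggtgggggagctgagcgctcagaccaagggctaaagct
The Cox6a1 run lies at chr5:115348959-115349208 and holds overlapping NRF1 cores in both orientations and 1 ETS/GABP match near its 3′ end. The Atp5j run, at chr16:84834977-84835226, holds 1 YY1 and 1 ETS/GABP match in the sense orientation. The other runs lie at chr17:83514334-83514583 (Cox7a2l) and chr11:96075632-96075881 (Atp5g1).

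The first comparison asked whether lefamulin changed the subunit genes. Under lefamulin 2 of the 80 tested genes were raised and 5 were lowered at an adjusted p below 0.05 (edgeR quasi-likelihood test, Benjamini-Hochberg over all genes), where 7.09% of all tested genes were raised and 6% lowered (13.1% in all). None passed the larger threshold of an absolute log2(fold change) above 1, which 1.51% of all genes passed. An unadjusted p below 0.05 was found for 12 of the 80 (15%), beside 27.2% of all tested genes. The median log2(fold change) was -0.015 over the 80 genes and -0.0018 over all genes, and by complex it was -0.027 in complex I, -0.0003 in complex II, -0.050 in complex III, 0.036 in complex IV and -0.030 in complex V. The 95% interval of the fold change lay within a 2-fold range either way for 79 of the 80 genes, and within 1.5-fold for 75. The 3 lefamulin libraries lay entirely above the 3 controls for 9 genes and entirely below for 17, where the shares among all genes were 18.9% and 18.8%. The count of calls moved both ways with the libraries and the fit. It fell to 0 lowered without control 3 (2.96% of all genes), to 1 without any one lefamulin library (2.86% to 3.35%) and to 3 with a replicate block (4.05%), so the share over all genes moved with it. It rose without tiamulin 2, which enters the shared estimate of spread, to 5 raised and 13 lowered (12.2% and 12.7% of all genes), and with offsets for GC content and length in all 9 libraries to 15 lowered beside 2 raised (11.9% and 11.8%).

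**Figure D2:**
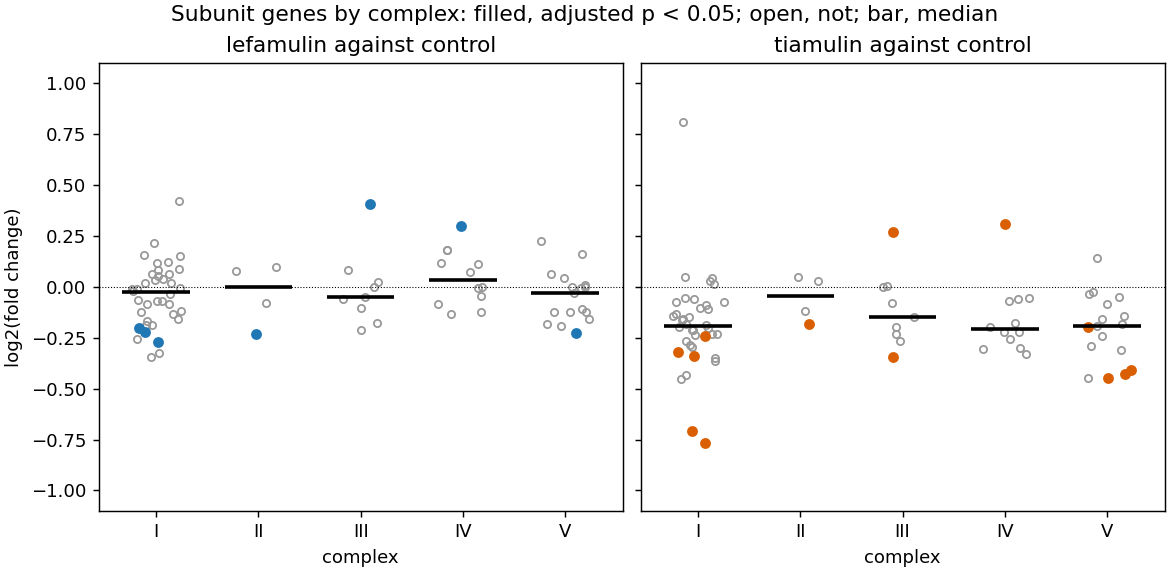
Log2(fold change) of the 80 tested subunit genes by complex, lefamulin against control on the left and tiamulin against control on the right. Each point is a gene, filled where the adjusted p was below 0.05, and the bars are medians, which ran from -0.050 to 0.036 for lefamulin and from -0.21 to -0.045 for tiamulin.

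Uqcrq, a small ubiquinone-binding subunit of complex III, was the clearest of the raised genes. Its level was 111, 116 and 113 CPM in controls, 161, 148 and 142 CPM with lefamulin and 140, 121 and 149 CPM with tiamulin. Every treated library lay above every control. Relative to control, the log2(fold change) was 0.41 ± 0.075 (SE) under lefamulin (edgeR adjusted p = 0.0026) and 0.27 ± 0.076 under tiamulin (edgeR adjusted p = 0.025), or 0.35 without tiamulin 2 (edgeR adjusted p = 2.6e-05). The other 8 genes of complex III did not pass the test under lefamulin, although Uqcrh was lowered in 5 of 20 other settings (lowest edgeR adjusted p 1.0e-04).

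Cox7a2l encodes the factor that joins complexes III and IV into supercomplexes. It stood at 75.5, 73.0 and 66.1 CPM in controls, 90.2, 85.6 and 88.2 CPM with lefamulin and 93.6, 77.4 and 94.7 CPM with tiamulin. Again the control libraries were the lowest 3, with tiamulin 2 nearest to them. Its log2(fold change) was 0.30 ± 0.081 under lefamulin (edgeR adjusted p = 0.025) and 0.31 ± 0.081 under tiamulin (edgeR adjusted p = 0.017), where leaving out tiamulin 2 gave 0.40 (edgeR adjusted p = 1.6e-05). Its relative Cox7a2, the subunit it resembles, is among the 10 expressed complex IV genes other than Cox7a2l and Cox5b-ps, and none of these 10 passed the test under either drug, with log2(fold change) from -0.13 to 0.18 with lefamulin and from -0.33 to -0.056 with tiamulin. With offsets for GC content and length, Cox5b, Cox6b1 and Cox7b were lowered by tiamulin (edgeR adjusted p = 0.017, 0.021 and 0.0014) and Cox7b also by lefamulin. When tiamulin 2 was also left out of that fit, Cox7b kept its tiamulin call, and Cox5b and Cox6b1 lost theirs. Without tiamulin 2 and without offsets, Cox5b, Cox6b1 and Cox7b did not pass (edgeR adjusted p = 0.17, 0.19 and 0.12).

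**Figure D3:**
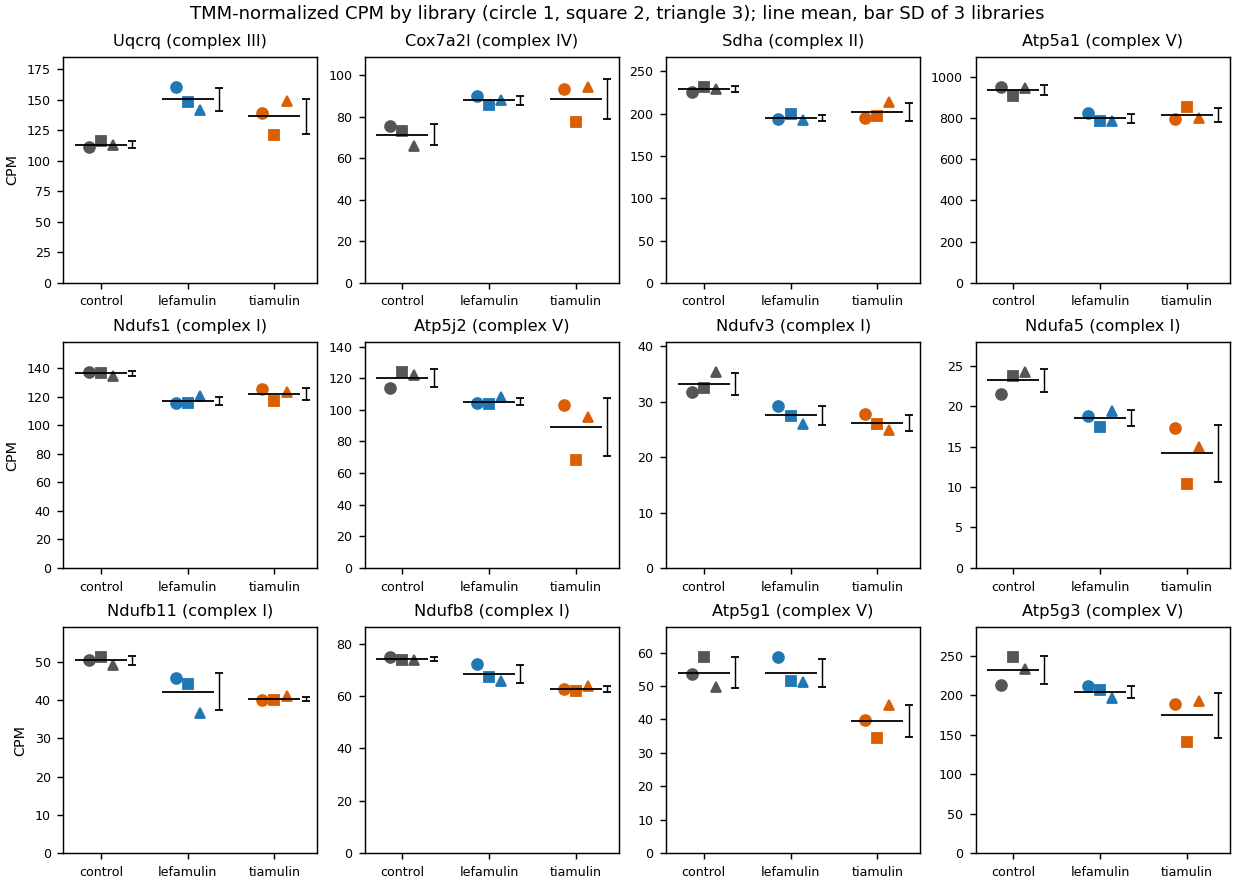
TMM-normalized CPM of 12 subunit genes in each library, 3 controls, 3 lefamulin and 3 tiamulin, with every axis starting at 0. Horizontal lines are group means and the bars beside them the SD of 3 libraries. Uqcrq and Cox7a2l lie above the controls under both drugs, and Atp5g1 lies below the other groups under tiamulin.

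The 5 genes lowered by lefamulin came from complexes I, II and V. The flavoprotein gene Sdha fell from 226, 232 and 229 CPM in controls to 193, 199 and 193 CPM with lefamulin, and was 194, 197 and 214 CPM with tiamulin. The control values did not overlap those of either drug. Against control, the log2(fold change) was -0.23 ± 0.054 under lefamulin (edgeR adjusted p = 0.012) and -0.18 ± 0.054 under tiamulin (edgeR adjusted p = 0.035), or -0.16 without tiamulin 2 (edgeR adjusted p = 0.012). For the other 3 complex II genes the log2(fold change) lay between -0.077 and 0.099 with lefamulin and between -0.12 and 0.047 with tiamulin, and none passed the test.

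Atp5a1, on chromosome 18, passed the test among the 5 genes of the catalytic F1 part of the ATP synthase. It measured 954, 907 and 946 CPM in controls, 825, 788 and 786 CPM with lefamulin and 794, 854 and 798 CPM with tiamulin, and the controls lay above all treated libraries. The log2(fold change) was -0.23 ± 0.050 under lefamulin (edgeR adjusted p = 0.0085) and -0.20 ± 0.050 under tiamulin (edgeR adjusted p = 0.014), or -0.23 without tiamulin 2 (edgeR adjusted p = 4.1e-05). Its partner Atp5b stood at 1509, 1460 and 1518 CPM in controls, 1434, 1359 and 1366 with lefamulin and 1375, 1429 and 1427 with tiamulin. Atp5b too was higher in every control than in any treated library, but its log2(fold change) of -0.11 ± 0.046 and -0.085 ± 0.046 did not pass (edgeR adjusted p = 0.14 and 0.24). Calls in other F1 genes depended on the fit. With offsets for GC content and length, Atp5b and Atp5c1 (the gamma subunit) were lowered by both drugs and Atp5d was raised by tiamulin, and Atp5b was also lowered by lefamulin in the fit of the 2 groups alone and without tiamulin 2.

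Complex I has 7 nuclear core subunits, which carry the flavin, the iron-sulfur clusters and the ubiquinone site, and Ndufs1 was among the genes that fell under lefamulin. Ndufs1, the largest iron-sulfur subunit, was 138, 137 and 135 CPM in controls and 115, 115 and 120 CPM with lefamulin (log2(fold change) -0.22 ± 0.055, edgeR adjusted p = 0.016). The 2 groups did not overlap. Tiamulin libraries stood at 125, 117 and 124 CPM for Ndufs1 (edgeR adjusted p = 0.060), which did not pass the test here but did in 7 of 20 other settings, among them DESeq2, both limma fits and the fits with offsets (lowest adjusted p 0.0078). All 7 core genes had a log2(fold change) between -0.22 and -0.0065 under lefamulin.

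Some of these genes lie across other genes. Ndufs1 overlaps Eef1b2 on the opposite strand, which collected 140940 counts over the 9 libraries against 18877 for Ndufs1. The strand setting of the counting is not given in the sources used here, so reads of such partners cannot be told apart. In all, 42 of the 90 genes overlap another annotated gene, and 19 overlap one on the opposite strand with at least 10% of their own counts, among them Ndufb11 (Rbm10) and Ndufb2 (Braf).

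Ndufv3, an accessory subunit beside the flavin site, was lower under both drugs. Its control values of 31.8, 32.4 and 35.5 CPM compared with 29.3, 27.4 and 26.0 CPM with lefamulin and 27.7, 26.1 and 24.9 CPM with tiamulin, without overlap. The log2(fold change) was -0.27 ± 0.085 (edgeR adjusted p = 0.0495) under lefamulin, just inside the threshold, and -0.34 ± 0.085 (edgeR adjusted p = 0.013) under tiamulin, or -0.34 without tiamulin 2 (edgeR adjusted p = 0.0066). Both comparisons use the same 3 controls, so a low or high control moves them together.

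The second comparison set tiamulin against control. Here 2 of the 80 genes were raised and 11 were lowered, where 9.08% of all tested genes were raised and 7.34% lowered, 16.4% in all (edgeR, adjusted p below 0.05), and again none had an absolute log2(fold change) above 1, as 1.78% of all genes did. The unadjusted p was below 0.05 for 31 of the 80 (38.8%), beside 29.8% of all tested genes. The median log2(fold change) over the 80 genes was -0.19 against 0.0034 over all genes, and 69 of the 80 lay below 0. The number lowered was 6, 5 and 4 without control 1, 2 and 3 (5.23%, 4.92% and 4.25% of all genes), 7 in the fit of the 2 groups alone (5.26%) and 7 with a replicate block (5.44%). Complexes I, IV and V had medians of -0.19, -0.21 and -0.19, complex III -0.15 and complex II -0.045. Tiamulin libraries lay entirely above the controls for 5 genes and entirely below for 24, where the shares among all genes were 17.1% and 15.2%.

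Much of that shift lay in 1 library. The median deviation of the 80 genes from the control mean was -0.42 (log2) in tiamulin 2, -0.094 in tiamulin 1 and -0.066 in tiamulin 3. Control libraries ranged from -0.055 to 0.056 and lefamulin libraries from -0.073 to 0.053. The tiamulin 2 deviation was -0.51 in complex IV, -0.49 in complex V and -0.42 in complex I but -0.11 in complex III and -0.021 in complex II.

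**Figure D4:**
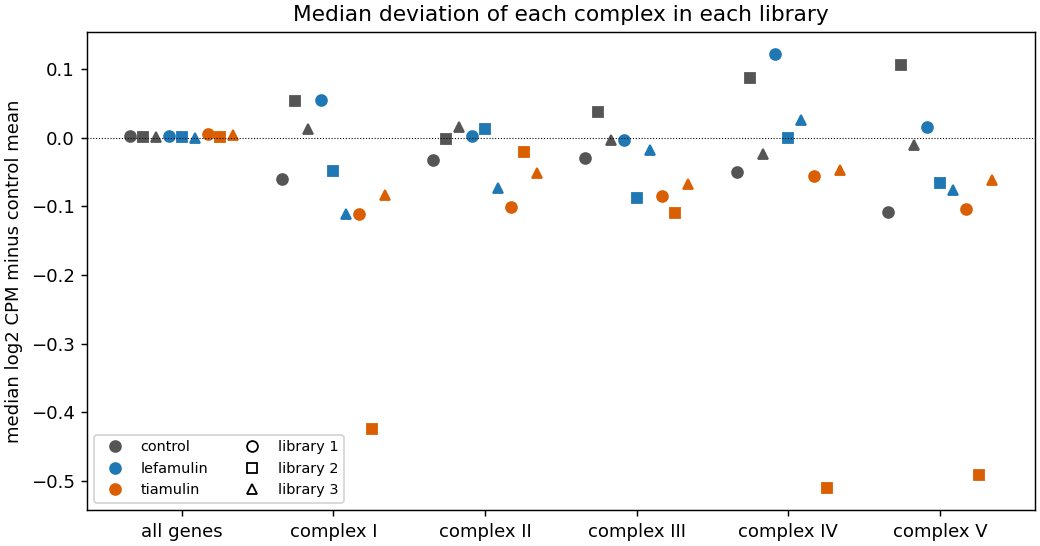
Median log2 deviation from the control mean in each library (CPM), for all tested genes and for the tested genes of each complex. Colours give the group and symbols the library number. Tiamulin 2 lies at -0.42 to -0.51 in complexes I, IV and V, while all tested genes lie close to 0 in every library.

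Of the 80 genes, 65 were lowest in tiamulin 2 among the tiamulin libraries, including all 12 of complex IV, 32 of 38 in complex I, 14 of 17 in complex V and 7 of 9 in complex III, but 0 of 4 in complex II. For 56 genes tiamulin 2 was the lowest of all 9 libraries. The subunit genes were shorter than other genes, with a median length of 1697 bases against 3901, and similar in GC content, 50.2% against 49.2%. Across 79 of them, the deviation of tiamulin 2 had a rank correlation of 0.42 with length and 0.29 with GC content. Over the 10054 well-covered genes its correlation was 0.038 with length, beside 0.70 with GC content. The 79 genes share the library and its depth, and the correlations are given as a description.

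Without tiamulin 2, the median log2(fold change) was -0.075, 60 genes lay below 0, and 2 were raised and 12 lowered, where 11.7% and 11.3% of all genes were. Complex medians were then -0.095 in complex I, -0.058 in complex II, -0.064 in complex III, -0.055 in complex IV and -0.077 in complex V. With offsets for GC content and length fitted in each library, and all 9 libraries kept, the median was -0.16 and 67 genes lay below 0, with 3 raised and 25 lowered, where 13.9% and 13.1% of all genes were. With both changes together the median was -0.078 and 58 genes lay below 0. The part that base composition or length had in tiamulin 2 was not otherwise tested.

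**Figure D5:**
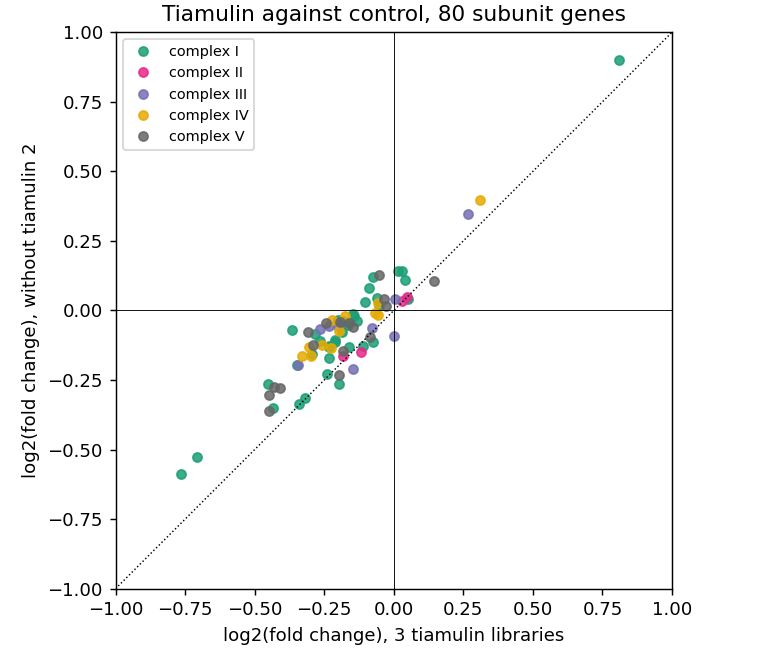
Log2(fold change) of the 80 subunit genes, tiamulin against control, with all 3 tiamulin libraries (horizontal) and without tiamulin 2 (vertical), coloured by complex. On the dotted line both are equal. Of the 80 points, 70 lie above it, and the median moved from -0.19 to -0.075.

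Ndufa5, an accessory subunit of the peripheral arm of complex I, fell furthest among the genes lowered by tiamulin with groups that did not overlap. It measured 21.5, 23.7 and 24.3 CPM in controls, 18.8, 17.5 and 19.4 CPM with lefamulin and 17.28, 10.37 and 14.95 CPM with tiamulin. All tiamulin values lay below all others, tiamulin 2 being the lowest. Its log2(fold change) was -0.71 ± 0.14 (edgeR adjusted p = 0.0034), or -0.53 without tiamulin 2 (edgeR adjusted p = 0.00044). Under lefamulin it was -0.32 ± 0.14 (edgeR adjusted p = 0.15). There Ndufa5 passed in 5 of 20 other settings, among them without tiamulin 2 and with offsets (lowest edgeR adjusted p 0.0022).

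Ndufb11 and Ndufb8, accessory subunits of the membrane arm, fell in all 3 tiamulin libraries alike. Ndufb11 was 50.7, 51.4 and 49.3 CPM in controls and 40.1, 40.1 and 41.1 CPM with tiamulin (log2(fold change) -0.32 ± 0.083, edgeR adjusted p = 0.017). Ndufb8 was 75.1, 73.7 and 73.7 CPM in controls and 62.7, 61.7 and 64.0 CPM with tiamulin (log2(fold change) -0.24 ± 0.062, edgeR adjusted p = 0.016). For neither gene was tiamulin 2 set apart from the other tiamulin libraries, and without it the log2(fold change) was -0.31 and -0.23. Lefamulin values were 45.8, 44.3 and 36.8 CPM for Ndufb11 (edgeR adjusted p = 0.057) and 72.3, 67.2 and 65.6 CPM for Ndufb8 (edgeR adjusted p = 0.24).

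Ndufb2 had the largest estimated fall, but on few counts and with overlapping groups. It stood at 3.81, 6.69 and 6.59 CPM in controls, 4.86, 4.88 and 3.74 CPM with lefamulin and 3.23, 2.44 and 4.36 CPM with tiamulin (log2(fold change) -0.77 ± 0.25, edgeR adjusted p = 0.048). Without tiamulin 2 the log2(fold change) was -0.59 and the adjusted p (edgeR) 0.075. At the other extreme, Ndufa12, an accessory subunit of complex I named here after its values were seen, had the highest log2(fold change) of all members under tiamulin, 0.81 ± 0.38, and did not pass the test (edgeR adjusted p = 0.21). It stood at 14.4, 19.96 and 19.7 CPM in controls, 21.2, 38.9 and 12.4 CPM with lefamulin and 30.4, 27.5 and 37.0 CPM with tiamulin, so that tiamulin lay entirely above the controls and the lefamulin libraries scattered across both. The call was gained in the fit of tiamulin and control alone (edgeR adjusted p = 0.0075), without lefamulin 2 (0.0098) and without lefamulin 3 (0.021), and in none of the other 17 settings (adjusted p from 0.17 to 0.43).

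Subunit c of the ATP synthase forms the rotating ring in the membrane, and 3 nuclear genes encode the same mature protein with different import peptides. Atp5g1 was 53.6, 58.8 and 49.7 CPM in controls, 58.7, 51.6 and 51.1 CPM with lefamulin and 39.8, 34.6 and 44.3 CPM with tiamulin. Control and lefamulin values overlapped, and tiamulin lay below both. This gave a log2(fold change) of -0.45 ± 0.10 under tiamulin (edgeR adjusted p = 0.0057) and -0.01 ± 0.10 under lefamulin (edgeR adjusted p = 0.98). Without tiamulin 2 the tiamulin value was -0.36 (edgeR adjusted p = 0.0015).

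Atp5g3, at 106 ± 8.3 FPKM the most abundant of the 3 in controls, was 213, 249 and 234 CPM in controls, 212, 207 and 196 CPM with lefamulin and 190, 141 and 193 CPM with tiamulin. Its tiamulin libraries lay below all others, and tiamulin 2 was the lowest. The log2(fold change) under tiamulin was -0.41 ± 0.10 (edgeR adjusted p = 0.012), or -0.28 without tiamulin 2 (edgeR adjusted p = 0.00035). Atp5g2, at 43.9 ± 3.2 FPKM in controls, was 79.0, 74.4 and 68.5 CPM in controls, 69.0, 62.1 and 67.8 CPM with lefamulin and 78.2, 64.1 and 74.2 CPM with tiamulin, with groups that overlapped (edgeR adjusted p = 0.24 and 0.82).

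Atp5j2 (subunit f of the membrane part) and Uqcrh (the hinge protein of complex III beside cytochrome c1) completed the list. Atp5j2 was 114, 124 and 122 CPM in controls and 103, 68.4 and 95.7 CPM with tiamulin (log2(fold change) -0.43 ± 0.11, edgeR adjusted p = 0.017). Uqcrh was 93.9, 104 and 96.5 CPM in controls and 85.9, 60.0 and 85.5 CPM with tiamulin (log2(fold change) -0.34 ± 0.11, edgeR adjusted p = 0.040). In each, tiamulin 2 was the lowest of the 9 libraries. Without it the log2(fold change) was -0.27 and -0.19, and both still passed the test (edgeR adjusted p = 0.00059 and 0.014).

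Leaving out tiamulin 2 also brought in 2 genes, Cyc1 (cytochrome c1) and Ndufv1 (the flavin-binding core subunit), with log2(fold change) of -0.21 and -0.26 (edgeR adjusted p = 0.0056 and 0.0024). With all libraries these were -0.15 and -0.20 (edgeR adjusted p = 0.15 and 0.079). In both genes tiamulin 2 was the highest tiamulin library, at 114 CPM beside 103 and 98.4 for Cyc1 and at 76.4 CPM beside 67.3 and 66.2 for Ndufv1.

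By role, the accessory genes of complex I held all 5 of its lowered genes under tiamulin (30 tested, median log2(fold change) -0.21), and none of the 7 core genes passed (median -0.11). In the ATP synthase, 2 of 3 subunit c genes, 1 of 5 F1 genes and 1 of 5 genes of small membrane subunits were lowered, and 0 of 4 of the peripheral stalk, where 7.34% of all tested genes were lowered. Groups of this size are too small to be set against that share. The difference between these role groups was not tested.

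The third comparison set the 2 analogues against each other at the same mass concentration and time. Atp5g1 was the single subunit gene that differed significantly, being lower under tiamulin than under lefamulin (log2 difference -0.44 ± 0.10, 95% interval -0.65 to -0.23, edgeR adjusted p = 0.020; -0.36 and 0.0058 without tiamulin 2), and none was higher, where 2.05% of all tested genes were lower and 2.85% higher, 4.9% in all. No difference exceeded an absolute log2 of 1 with a significant test, as 0.227% of all genes did. At an unadjusted p below 0.05 there were 19 such genes among the 80 (23.8%), beside 21.6% of all tested genes. The 95% interval of the difference lay within 2-fold for 79 of the 80 genes and within 1.5-fold for 69.

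Over the 80 genes, the median log2 difference between tiamulin and lefamulin was -0.16, with 68 genes below 0. Without tiamulin 2 it was -0.058 with 59 below 0, and -0.027 with 48 below 0 when GC content and length were also fitted. Tiamulin libraries lay entirely below the lefamulin libraries for 19 genes and entirely above for 2, among them Atp5d (the delta subunit), where the shares among all genes were 12.9% and 13.6%. For the genes raised by both drugs the difference was 0.010 ± 0.080 for Cox7a2l (95% interval -0.16 to 0.18) and -0.14 ± 0.075 for Uqcrq (-0.30 to 0.022), where the interval lay mostly below 0 but included it. For the genes lowered by both it was 0.028 ± 0.050 for Atp5a1 (-0.079 to 0.14), 0.050 ± 0.055 for Sdha (-0.067 to 0.17) and -0.071 ± 0.086 for Ndufv3 (-0.26 to 0.11).

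The calls differed in how far they depended on single libraries. Uqcrq under lefamulin and Ndufa5 and Atp5g1 under tiamulin kept an adjusted p below 0.05 whichever library was left out. Under lefamulin, the call was lost without control 3, lefamulin 2 or lefamulin 3 for Atp5a1 (adjusted p up to 0.056 over 20 alternatives) and without control 3, lefamulin 1 or lefamulin 3 for Sdha (up to 0.059). Ndufs1 lost it without any control, lefamulin 1 or lefamulin 2 (up to 0.082), and Cox7a2l without any lefamulin library, control 2 or control 3 (up to 0.14). Ndufv3 lost it without any one of 8 libraries, all but tiamulin 2 (up to 0.20).

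Under tiamulin, Ndufv3 lost its call without control 3 (up to 0.076), Ndufb8 without control 1 or 3 (up to 0.059), Ndufb11 without control 1 or 2 (up to 0.061), Atp5g3 without control 2 (up to 0.065) and Atp5j2 without control 2 or 3 (up to 0.11). Atp5a1 lost it without control 1, control 3 or tiamulin 1 (up to 0.072), and Cox7a2l without control 3, tiamulin 1 or tiamulin 3 (up to 0.10). Uqcrq lost it without any control, tiamulin 1 or tiamulin 3 (up to 0.099), Uqcrh without any control or lefamulin library (up to 0.14), Sdha without those or tiamulin 1 (up to 0.12), and Ndufb2 without control 2 or 3, any lefamulin library, tiamulin 1 or tiamulin 2 (up to 0.18). Calls were also lost in fits that kept every library. Under tiamulin, Atp5j2 lost its call with offsets for GC content and length (adjusted p = 0.081), in the fit of the 2 groups alone and with block and offsets together, and Atp5g3 lost it with block and offsets. The fit of 2 groups alone also ended the tiamulin calls of Sdha, Uqcrq, Cox7a2l, Uqcrh and Ndufb2, and the replicate block those of Atp5a1, Sdha, Uqcrq, Uqcrh and Ndufb2. Uqcrh also lost it in both limma fits, where Ndufb2 was too low to be tested, and Sdha without a filter on low counts. Under lefamulin, Ndufv3 lost its call without a filter and with the block. The difference in Atp5g1 between the drugs was lost without any lefamulin library or tiamulin 1 (up to 0.11). These p-values are adjusted p from edgeR, DESeq2 or limma.

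Genes that build and feed the complexes were read from the same test, in which 7.09% of all genes were raised and 6% lowered under lefamulin and 9.08% and 7.34% under tiamulin. The lists that follow hold 4 to 22 tested genes each, too few for their counts to be read against these shares. Of 17 tested complex I assembly factors, 1 was raised under lefamulin (Foxred1, log2(fold change) 0.30, edgeR adjusted p = 0.042) and 1 under tiamulin (Timmdc1, 0.49, edgeR adjusted p = 0.0055). None of 4 complex II assembly factors passed under either drug. Among 22 for complex IV, lefamulin raised 3 (Coa3, Cox17 and Slirp, log2(fold change) 0.43, 0.73 and 0.69) and lowered Cox15 (-0.28), and tiamulin raised none and lowered 2 (Cox15, -0.24, and Cmc2, -0.49), each with an edgeR adjusted p between 0.013 and 0.0492. Leaving out tiamulin 2 gave 0.46 for Timmdc1 and -0.27 for Cox15, which kept their calls (edgeR adjusted p = 0.0052 and 0.0054), while Cmc2 at -0.43 did not (edgeR adjusted p = 0.096). It also brought in Acad9, of the complex I list, as lowered. Acad9 moved from -0.25 to -0.32 (edgeR adjusted p from 0.062 to 0.0027). Cox15 makes heme A and Cox17 carries copper for complex IV.

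The list for complex III had 7 tested genes, 1 of them Fmc1, a complex V assembly factor. None passed under lefamulin, and Fmc1 alone was lowered under tiamulin (-0.50, edgeR adjusted p = 0.043). Fmc1 also counted among the 5 for complex V, where lefamulin lowered 1 (Atpaf2, which helps to assemble F1, -0.51, edgeR adjusted p = 0.0084) and tiamulin 2 (Fmc1 and Atpaf2, -0.36, edgeR adjusted p = 0.038). When tiamulin 2 was left out, Fmc1 stood at -0.34 and lost its call (edgeR adjusted p = 0.099), and Atpaf2 kept it at -0.34 (edgeR adjusted p = 0.048). In the list of the mobile carrier and coenzyme Q synthesis, 14 were tested and each drug raised 2. Cytochrome c itself (Cycs) was 153 ± 4.6 CPM in controls (SD, n = 3), 182 ± 2.0 CPM with lefamulin and 137 ± 17 CPM with tiamulin, and the drugs differed by -0.41 (edgeR adjusted p = 0.0069). Its tiamulin 2 count of 1892 was the lowest beside 2331 and 2552, and without that library the difference was -0.32 (edgeR adjusted p = 8.4e-05).

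The 13 mRNAs of the mitochondrial genome, whose products join the nuclear subunits in complexes I, III, IV and V, included larger differences. Lefamulin raised 2 and lowered 1, and tiamulin raised 1 and lowered 1, or 5 and 1 when tiamulin 2 was left out. mt-Co1, the catalytic subunit of complex IV, fell from a mean of 12444 CPM in controls to 7123 with lefamulin and 9120 with tiamulin (log2(fold change) -0.80 and -0.45, edgeR adjusted p = 8.9e-05 and 0.0048). Tiamulin 2 held 118491 of its counts beside 159104 and 174532 in the other tiamulin libraries, and without it the value was -0.32 (edgeR adjusted p = 1.7e-06). mt-Nd2, of complex I, rose from 2325 to 4514 CPM with lefamulin (log2(fold change) 0.96, edgeR adjusted p = 0.0019), and was 3176 CPM with tiamulin (log2(fold change) 0.45, edgeR adjusted p = 0.056), which passed the test without tiamulin 2 (0.62, edgeR adjusted p = 0.00042).

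Among 14 regulators of these genes, each drug raised 2 and lowered 2. Ppargc1a, the coactivator of mitochondrial biogenesis, had 10.78 CPM in controls, 15.58 with lefamulin and 14.73 with tiamulin (log2(fold change) 0.53 and 0.45, edgeR adjusted p = 0.0049 and 0.011). Its nuclear receptor partner Esrra rose by 0.25 and 0.21 on the log2 scale (edgeR adjusted p = 0.015 and 0.034), while Yy1 fell by 0.27 and 0.23 (edgeR adjusted p = 0.010 and 0.020). Gabpb2, for a beta subunit of GABP, was lowered by tiamulin (-0.26, edgeR adjusted p = 0.0098) and stood at -0.18 with lefamulin (edgeR adjusted p = 0.079). Under tiamulin without tiamulin 2, Ppargc1a stood at 0.49, Esrra at 0.23, Yy1 at -0.26 and Gabpb2 at -0.22, and all 4 passed the test, as did 2 more lowered regulators. Nrf1, Gabpa and the mitochondrial transcription factor Tfam had log2(fold change) between -0.058 and 0.11 with lefamulin and between -0.12 and 0.084 with tiamulin, and none of the 3 passed the test.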

How the data were processed

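The authors extracted total RNA with TRIzol and had 9 Hepa1-6 libraries sequenced. Per the labels' processing notes, CASAVA 1.8, fastp, HISAT2 2.0.5, featureCounts 1.5.0-p3 and DESeq2 1.20.0 were used with build mm10, in roles that are not stated. The positions the deposited table gives for nuclear genes match GRCm38 for 1 of the 90 members, so none are printed, and the strand setting is not given in the sources used here. The authors deposited raw read counts per gene and an FPKM table, whose values equal the counts divided by gene length and by 1 scale per library.

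Counts of 9 libraries were fitted in edgeR 4.0.16 (R 4.3.3) with TMM factors, filterByExpr and a robust quasi-likelihood fit on group alone, and p-values were adjusted over the 14510 genes that passed the filter. CPM values are TMM-normalized. Standard errors came from the fitted model and intervals at 95%. The pipeline was tested on simulated counts. Alternatives were DESeq2 1.42.0, limma 3.58.1 on log2(FPKM + 1) and log2(FPKM + 0.1), other filters, a replicate block, offsets for GC content and gene length (splines with 5 degrees of freedom, GRCm38 transcripts), fits of 2 groups, and leaving out each library. The members, lists, roles and rules were chosen with earlier results of these data known. Every member past the threshold, the 2 highest and 2 lowest levels of each complex, the Sdh genes, isoform groups, members too low to test, and up to 4 genes of each other list were to be named. The labels call the controls untreated, whereas the methods name a vehicle. Replicate numbers come from the labels, and the main fit did not pair samples by them. The values of 1 member are not reported here.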

Additional observations from a re-analysis of the deposited data

Results flagged for a closer look

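Atp5g1, a gene for subunit c of the ATP synthase, responded differently to the 2 drugs. Its tiamulin minus lefamulin log2 difference was -0.44 (edgeR adjusted p = 0.020), with all 3 tiamulin libraries below all 3 lefamulin libraries and all 3 controls. The call held in 12 of 20 alternative settings, with adjusted p (edgeR, DESeq2 or limma) from 7.3e-05 to 0.11. It was lost when lefamulin 1, lefamulin 2, lefamulin 3 or tiamulin 1 was left out, in the fit of the 2 groups alone, with the replicate block and in both limma fits. With 3 libraries a group, no outlier test of single genes was made.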

How the results depend on the processing

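Of 480 recomputed counts and medians over the complexes, 420 kept their direction and stayed within 1.5 times the count or within the spread of the libraries, and of 1254 recomputed single-gene values 1111 kept their side of the threshold, 96 lost a call, 47 gained one and 0 reversed. The numbers of raised and lowered members were 2 and 5 under lefamulin, 2 and 11 under tiamulin, and 0 and 1 for tiamulin against lefamulin. Shares of all genes called the same way in the same fit stand in parentheses. Fits of 2 groups alone gave 4 and 12 (12.4% and 12.5%), 1 and 7 (6.7% and 5.26%), and 0 lowered for the drugs compared (0.783%). Offsets for GC content and length gave 15 lowered by lefamulin (11.9%), 25 by tiamulin (13.1%), and 1 and 3 between the drugs (7.01% and 6.15%). With tiamulin 2 also left out, chosen after seeing the data, they gave 5 and 18 (13.6% and 14.2%), 23 lowered by tiamulin (13.4%), and 2 higher between the drugs (6.5%), with medians of -0.027 over all members and 0.026 in complex III there and -0.070 in complex III under tiamulin. Without a filter on low counts, which let 87 members in, 19 were lowered by tiamulin and 12 between the drugs (3.83% and 1.62% of all 30014 genes), and both limma fits gave 0 lowered between the drugs (1.63%). The causes were not tested.

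Same-numbered libraries correlated at -0.49 to 0.03 in their deviations, and none of 9 pairs lay above 0.1. The best match had its own number in 2 of 18 cases, so these deviations showed no pairing by number. Deviations within a group sum to 0 and in several libraries followed GC content, so this check could miss a shared culture or batch. The replicate block gave 3 lowered under lefamulin (4.05%), 1 raised and 7 lowered under tiamulin (7.04% and 5.44%), and 0 lowered between the drugs (0.675%). The replicate block with offsets gave 14 lowered under lefamulin (10.7%), 21 under tiamulin (11.9%), and 1 higher and 3 lower between the drugs (6% and 5.04%). 

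Leaving out 1 library gave 1 to 5 raised and 0 to 13 lowered under lefamulin. Lowered counts were 2, 3 and 0 without control 1, 2 and 3, 1 each without lefamulin 1, 2 or 3, and 13 without tiamulin 2 (3.46%, 4.52%, 2.96%, 3.35%, 2.86%, 3.31% and 12.7%). Raised counts were 1 without control 2, control 3 or any lefamulin library (3.73% to 5.08%) and 5 without tiamulin 2 (12.2%). Under tiamulin the range was 0 to 3 raised and 4 to 15 lowered. Lowered counts were 6, 5 and 4 without control 1, 2 and 3 (5.23%, 4.92% and 4.25%), and raised counts were 0 without control 3, tiamulin 1 or tiamulin 3 (5.6%, 7.38% and 7.96%) and 1 without control 1 or 2 (6.74% and 6.2%). Between the drugs the range was 0 to 3 lowered, with 0 without any lefamulin library (0.526% to 0.619%), 2 without tiamulin 1 (1.17%) and 3 without tiamulin 3 (2.39%). The complex III median ran from -0.080 to -0.011 under lefamulin, from -0.15 to -0.064 under tiamulin, and from -0.15 to -0.014 between the drugs. Its extremes came without lefamulin 1 and 2, without lefamulin 3 and tiamulin 2, and without lefamulin 2 and tiamulin 2, in that order.

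Over 20 settings, Uqcrq under lefamulin and Ndufa5 and Atp5g1 under tiamulin kept their calls in all. Sdha and Uqcrh under tiamulin and Ndufv3 under lefamulin kept theirs in 10, and Ndufb2 in 9 of 18. With 3 libraries a group, the median interval reached 0.22 (log2) either side of the fold change under each drug, which limits the size of difference that could be seen.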
